A study of Mus musculus with 2 samples.

Results

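The 10 genes described here encode core Polycomb proteins: Ezh1, Ezh2, Eed, Suz12 and Jarid2 of Polycomb repressive complex PRC2, and Bmi1, Rnf2, Ring1, Cbx2 and Cbx7 of PRC1. They were chosen by name and found by symbol among the 55536 mouse genes of the GENCODE M21 gene table, where each of the 10 matched 1 gene. Polyadenylated RNA of G1E-ER4 cells had been sequenced with paired-end reads. G1E-ER4 is a male mouse erythroid line grown from Gata1-null cells, and it carries GATA1 fused to the ligand-binding part of the estrogen receptor. All cells in the series had received 17beta-estradiol, which activates the fusion protein, at 10 nM for 24 h. There was 1 group of 2 libraries, biological replicates 1 and 2 in the labels. Both carry the same biosample record, nothing says that separate cultures were used, and the spread between them may therefore be technical. No untreated or parental sample was analysed here, so every value below is a level in treated cells and no test between conditions could be made.

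Polycomb complexes keep developmental genes silent by modifying histones. PRC2 methylates histone H3 through EZH2 or its paralog EZH1, which need EED and SUZ12 as partners. PRC1 ubiquitinates histone H2A through RNF2 or RING1, and CBX proteins of the canonical PRC1 bind the mark that PRC2 leaves. In maturing red cells EZH2 is known to decline while EZH1 persists, so the balance of both paralogs is often followed in this lineage.

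Total expected counts, the estimated fragments assigned to genes, were 71485617 and 14121747 in replicates 1 and 2, a ratio of 5.06. Of 12 erythroid markers, 11 were detected at 1 TPM (a transcript's abundance per unit of length, scaled to a fixed total) or more in both libraries. None of the 7 mast cell, 10 granulocyte and monocyte, 10 lymphoid or 7 stromal markers was detected, against 3 of 8 megakaryocyte and 2 of 8 stem and progenitor markers. Gata1 stood at 2890 and 2661 TPM in replicates 1 and 2. The tables do not say whether this RNA came from the fusion.

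Of the 10 Polycomb genes, 9 were detected, against a background of 33.1% of all 22028 protein-coding genes. Cbx2, a CBX reader of canonical PRC1, was the exception. It had 1 expected count in replicate 1 and 0 in replicate 2, and it was listed at 0 TPM in both. A floor of 3 counts corresponds to 0.0420 CPM (counts scaled to the library total) in replicate 1 and 0.212 CPM in replicate 2, so Cbx2 lay under what these depths can show. In bulk RNA, fewer cells with a transcript and less of it per cell cannot be told apart.

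**Figure D1:**
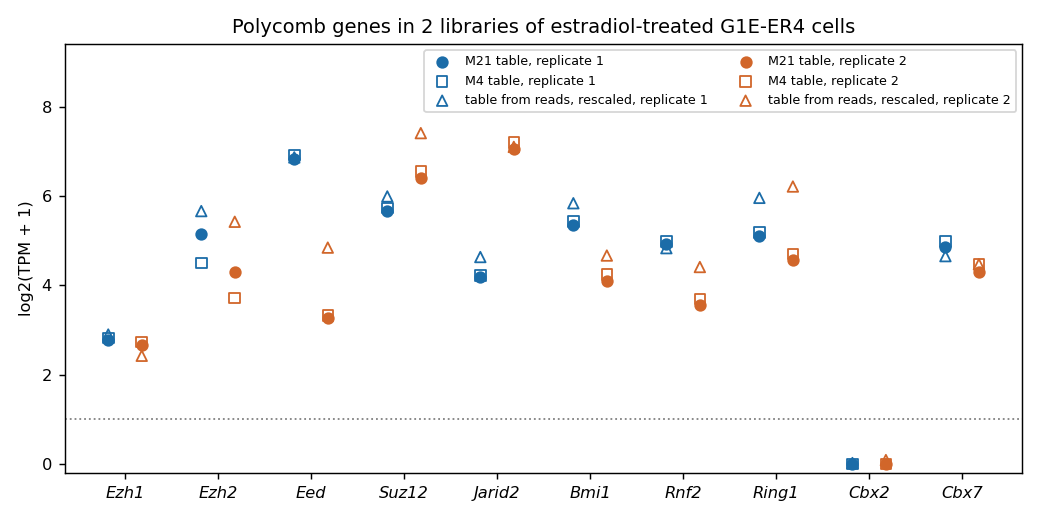
Level of each Polycomb gene as log2(TPM + 1) in replicate 1 (blue, left) and replicate 2 (orange, right). Filled circles are the M21 gene table, squares the M4 gene table and triangles the table made from the reads, rescaled over nuclear protein-coding genes; the dotted line marks 1 TPM. All genes except Cbx2 lie above that line in both libraries, and Eed and Jarid2 show the widest gaps between the libraries.

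Ezh2, the main histone methyltransferase of PRC2 (chr6:47530139-47595341, minus strand, mm10), had 34.6 and 18.8 TPM in replicates 1 and 2, averaging 26.7 ± 11.2 TPM (SD, n = 2). Its paralog Ezh1 (chr11:101191115-101226463, minus strand) had 5.80 and 5.37 TPM in replicates 1 and 2, averaging 5.59 ± 0.304 TPM (SD, n = 2). Both Ezh2 values lay above both Ezh1 values, and by the TPM of the M21 table Ezh1 varied least of the 9 detected genes, with a fold of 1.08 between the libraries. In CPM its fold was 1.36, against 1.09 for Cbx7. In the table made from the reads Ezh1 had 4.78 and 1.04 TPM in replicates 1 and 2. Rescaled over nuclear protein-coding genes, these became 6.45 and 4.36 TPM. Ezh2 rested on 3769 expected counts in replicate 1 and 312 in replicate 2, and Ezh1 on 972 and 141 in replicates 1 and 2. The authors' interval of the posterior TPM, whose level is not stated, ran from 33.6 to 36.5 in replicate 1 and from 17.0 to 21.3 in replicate 2 for Ezh2, and from 5.21 to 6.68 in replicate 1 and from 4.45 to 7.66 in replicate 2 for Ezh1. The intervals of both genes lay apart in each library. Among all protein-coding genes, Ezh2 lay at percentile 87.8 and 84.9 in replicates 1 and 2, and Ezh1 at percentile 73.0 and 75.9 in replicates 1 and 2.

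The ratio of Ezh2 to Ezh1 TPM was 5.96 and 3.50 in replicates 1 and 2, averaging 4.73 ± 1.74 (SD, n = 2). With the older GENCODE M4 annotation it was 3.56 and 2.15 in replicates 1 and 2. In the transcript table made directly from the reads, summed per gene, it was 7.68 and 9.60 in replicates 1 and 2. Ezh2 was thus the higher of both in each library and each table, with a ratio that spanned 2.15 to 9.60. The library with the higher ratio was replicate 1 in the M21 and M4 tables and replicate 2 in the table made from the reads. Of the expected counts of both genes together, which are not corrected for length, Ezh2 held 79.5% in replicate 1 (exact 95% interval 78.3% to 80.6%) and 68.9% in replicate 2 (64.4% to 73.1%). These intervals cover counting error only.

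The order held for gene totals and not for every choice of transcripts. Most Ezh2 signal in M21 was assigned to Ezh2-215, a transcript annotated as a target of nonsense-mediated decay, the pathway that degrades RNA with a premature stop codon. Ezh2-215 had 29.1 and 17.3 TPM in replicates 1 and 2, a mean share of 88.0% of the gene. Over protein-coding transcripts alone, Ezh2 had 5.23 and 0.15 TPM in replicates 1 and 2, and Ezh1 had 2.89 and 2.41 TPM in replicates 1 and 2. On that basis the ratio of Ezh2 to Ezh1 was 1.81 and 0.0622 in replicates 1 and 2. In replicate 2 the coding Ezh2 transcripts held 5.03 expected counts. The same coding ratio was 7.06 and 3.87 in replicates 1 and 2 with M4, and 1.92 and 1.06 in replicates 1 and 2 in the table made from the reads. By the TPM of coding transcripts Ezh2 was therefore below Ezh1 in replicate 2 of the M21 table alone. By the expected counts of coding transcripts, which are not corrected for length, it was below Ezh1 in replicate 2 of the table made from the reads too, with 191 against 323 counts, a ratio of 0.591. The limit to coding transcripts was chosen after these data had been seen.

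**Figure D2:**
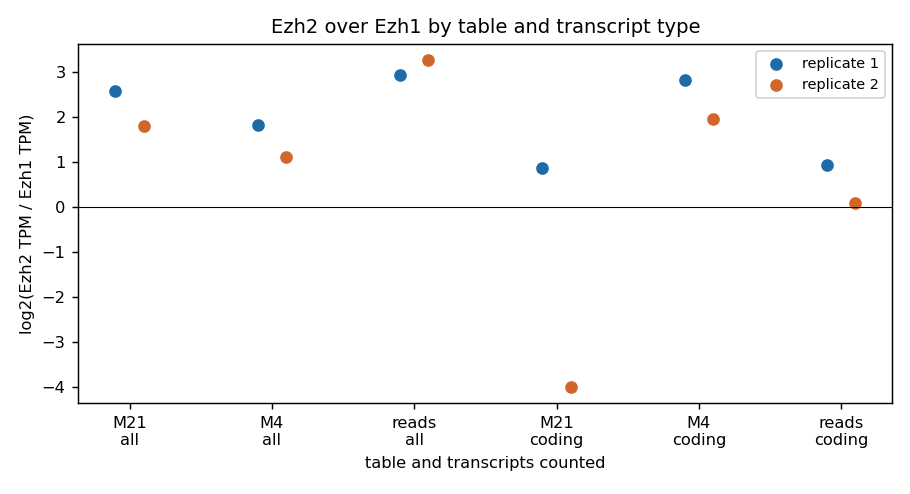
Ratio of Ezh2 to Ezh1 TPM on a log2 scale (vertical axis) for each table, over all transcripts and over protein-coding transcripts alone, with replicate 1 in blue and replicate 2 in orange. All points lie above 0 except replicate 2 of the M21 table over coding transcripts, where the ratio was 0.0622.

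The sequences below show what sets Ezh2-215 apart, and each starts with the same 24 bases at the end of exon 3. In Ezh2-215 an alternative exon of 270 bases follows (chr6:47561669-47561938, minus strand), shown in capitals as far as its in-frame stop codon, the last 3 capitals (chr6:47561903-47561905). In Ezh2-201, the transcript with the full reading frame of 746 codons, exon 4 follows instead (chr6:47558178-47558294, 117 bases), whose first 36 bases are in capitals.
Ezh2-215: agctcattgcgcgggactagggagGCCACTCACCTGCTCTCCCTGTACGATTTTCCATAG
Ezh2-201: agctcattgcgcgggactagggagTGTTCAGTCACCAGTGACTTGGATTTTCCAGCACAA
The reading frame of Ezh2-215 has 93 codons, and its 11 exons cover 42.4% of the bases of the full coding sequence. No other annotated Ezh2 transcript overlaps the alternative exon. The sequences here and below are those of GENCODE M21 transcripts on mm10.

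Ezh2-215 is absent from M4, which lists 12 Ezh2 transcripts, against 15 in M21. The gene's expected count was lower by 211 (5.60%) in replicate 1 and by 4 (1.28%) in replicate 2 when M4 was used, whereas M21 had assigned 2782 and 286 expected counts to Ezh2-215 in replicates 1 and 2. In M4 the largest share went to Ezh2-203, a coding transcript that, like Ezh2-215, lacks the 117-base exon 4. It held 86.9% of Ezh2 TPM in replicate 1 and 80.3% in replicate 2 with M4. Protein-coding transcripts made up 15.1% of Ezh2 TPM in replicate 1 and 0.799% in replicate 2 with M21, and 99.3% and 87.4% in replicates 1 and 2 with M4. The table made from the reads, which also uses M21, gave 11.4% and 8.64% in replicates 1 and 2. These tables hold no counts per junction or exon, and the use of the alternative exon itself was not measured.

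Ezh1 was also split among transcript types. In the M21 table made from the alignment (the M21 alignment table) its leading transcripts by mean share were Ezh1-209, a non-coding processed transcript of 2 exons with 1.00 and 1.87 TPM in replicates 1 and 2, and the coding Ezh1-202 with 0.82 and 2.00 TPM in replicates 1 and 2. Taken by library, the coding Ezh1-203 led in replicate 1 of that table with 34.3% of Ezh1 TPM, and the processed Ezh1-204 held 32.6%. In replicate 2 Ezh1-202 led with 37.2%. In the table made from the reads Ezh1-204 led in replicate 1 with 37.5% of Ezh1 TPM and Ezh1-203 in replicate 2 with 56.95%. Protein-coding transcripts held 49.8% of Ezh1 TPM in replicate 1 and 44.9% in replicate 2 in the M21 alignment table. By expected counts, which give short transcripts no extra weight, they held 86.7% and 84.0% in replicates 1 and 2.

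Suz12, the scaffold of PRC2, had 49.5 and 83.8 TPM in replicates 1 and 2, averaging 66.7 ± 24.3 TPM (SD, n = 2). It had the most fragments of the 10 genes, with 14950 expected counts in replicate 1 and 4320 in replicate 2. Protein-coding transcripts held all of its TPM in both libraries. In the M21 alignment table Suz12-206 had 37.8 and 83.8 TPM in replicates 1 and 2, while Suz12-201 had 11.7 TPM in replicate 1 and was at 0 in replicate 2. The table made from the reads had Suz12-201 above 0 in both, with 16.1 and 0.709 TPM in replicates 1 and 2.

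Eed, the subunit that binds methylated histone H3 and stimulates the enzyme, had the largest fold in M21 TPM between the libraries. It had 113 and 8.66 TPM in replicates 1 and 2, averaging 60.6 ± 73.5 TPM (SD, n = 2). In the rescaled table made from the reads Jarid2 had the larger fold. Its values there were 23.8 and 136 TPM in replicates 1 and 2, against 115 and 27.7 TPM for Eed. In the M21 alignment table, the retained-intron transcripts Eed-203 and Eed-202 held 65.3 and 33.3 TPM in replicate 1, and the full coding transcript Eed-201 held 4.90 TPM. In replicate 2 Eed-201 held 8.15 TPM and both of these retained-intron transcripts were at 0. Coding transcripts held 12.2% of Eed TPM in replicate 1 and 94.1% in replicate 2. In the table made from the reads they held 20.8% and 97.9% in replicates 1 and 2, but the transcripts differed. There Eed-202 held 78.0% in replicate 1, and in replicate 2 the coding Eed-210 held 64.8% and Eed-201 16.9%. The retained-intron transcripts end inside introns, and the stretch of intron that each keeps is in capitals after the last 24 exon bases (chr7:89976744-89976896 for Eed-202 and chr7:89972130-89972230 for Eed-203, minus strand).
Eed-202: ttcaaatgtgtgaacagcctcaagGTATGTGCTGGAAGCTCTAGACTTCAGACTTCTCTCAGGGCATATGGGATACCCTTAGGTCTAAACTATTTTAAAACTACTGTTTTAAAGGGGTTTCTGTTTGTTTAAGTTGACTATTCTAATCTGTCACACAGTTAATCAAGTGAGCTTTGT
Eed-203: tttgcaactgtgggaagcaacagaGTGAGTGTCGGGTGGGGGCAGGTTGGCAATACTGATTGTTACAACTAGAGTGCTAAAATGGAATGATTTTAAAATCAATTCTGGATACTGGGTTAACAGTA
The kept stretches are 153 bases in Eed-202 and 101 bases in Eed-203. Eed is overlapped by E230029C05Rik on the opposite strand, and 5 more of the 10 genes (Ezh2, Suz12, Jarid2, Rnf2 and Cbx7) also share their locus with a gene on the other strand. These overlaps are of whole gene spans, and whether exons overlap was not checked. No strand setting is stated in the sources used here, so reads from exon bases that such a pair may share cannot be told apart.

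Jarid2, a PRC2 cofactor that helps to recruit the complex, went the other way, with 17.1 and 132 TPM in replicates 1 and 2, averaging 74.3 ± 80.9 TPM (SD, n = 2). In replicate 2, Jarid2-207, another transcript annotated for nonsense-mediated decay, held 122 TPM and 817 of the gene's 1075 expected counts. In replicate 1 Jarid2-207 was at 0 in the M21 alignment table, where the coding Jarid2-210 led with 6.07 TPM. The leading transcript of replicate 1 changed with the table, to the coding Jarid2-211 with 39.8% of the gene's TPM in M4 and 34.8% in the table made from the reads. In that last table Jarid2-207 was above 0 in replicate 1, with 2.87 TPM and 16.3% of the gene. Coding transcripts held 97.4% of Jarid2 TPM in replicate 1 and 7.31% in replicate 2. Summed over coding transcripts, Jarid2 had 16.7 and 9.62 TPM in replicates 1 and 2, so the direction of the difference between the libraries was opposite to that of the gene total. The lines below give the exon that Jarid2-207 shares with the coding Jarid2-201 (chr13:44874283-44874452, 170 bases, plus strand) from its start to the stop codon of Jarid2-207 (chr13:44874348-44874350), each after the 24 bases of its own preceding exon. The same 3 letters in capitals form the stop codon of Jarid2-207, while in Jarid2-201 they start 1 base into a codon and are read in another frame.
Jarid2-207: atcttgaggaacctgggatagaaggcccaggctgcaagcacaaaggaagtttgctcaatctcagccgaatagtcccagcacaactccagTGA
Jarid2-201: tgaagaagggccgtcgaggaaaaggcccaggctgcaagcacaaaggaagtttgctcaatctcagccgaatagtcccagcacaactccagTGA
Jarid2-207 is 673 bases long with a frame of 44 codons, against 1234 codons in Jarid2-201. Apart from its own first exon, its exons all lie within exons of Jarid2-201, so 575 of its 673 bases are also bases of that coding transcript.

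Among PRC1 genes, Rnf2, the E3 ligase also called RING1B, had 29.2 and 10.8 TPM in replicates 1 and 2, averaging 20.0 ± 13.0 TPM (SD, n = 2). Its paralog Ring1 had 33.4 and 22.6 TPM in replicates 1 and 2, averaging 28.0 ± 7.64 TPM (SD, n = 2). Ring1 was the higher of both in each library, but the ranges of both genes overlapped. In replicate 1, Rnf2-203 had 23.9 TPM and Rnf2-201 had 5.13 TPM, while in replicate 2 Rnf2-201 had 10.8 TPM and Rnf2-203 was at 0. Both are annotated as coding, with 264 codons in Rnf2-203 and 336 in Rnf2-201. The sequences show the junction after exon 3, with 24 shared bases and then, in capitals, the first bases of the exon that follows, which in Rnf2-201 is the 216-base exon that Rnf2-203 skips (chr1:151476140-151476355, minus strand).
Rnf2-203: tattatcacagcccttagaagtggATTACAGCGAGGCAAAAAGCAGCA
Rnf2-201: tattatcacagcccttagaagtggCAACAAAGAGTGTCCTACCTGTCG
Ring1-201, the coding transcript, had 22.5 and 17.9 TPM in replicates 1 and 2, and the retained-intron Ring1-202 had 10.1 and 4.03 TPM in replicates 1 and 2. The table made from the reads had Ring1-202 above Ring1-201, with 27.8 and 12.2 TPM against 16.7 and 5.03 TPM in replicates 1 and 2. Coding transcripts held 67.2% and 79.2% of Ring1 TPM in replicates 1 and 2 in the M21 alignment table, and 37.0% and 28.9% in the table made from the reads.

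Bmi1, the PCGF partner of the ligases in canonical PRC1, had 40.1 and 16.2 TPM in replicates 1 and 2, averaging 28.1 ± 16.9 TPM (SD, n = 2). In the M21 alignment table, the non-coding Bmi1-203, a processed transcript of 464 bases, held 32.5 TPM in replicate 1, against 6.81 TPM for the coding Bmi1-201. In replicate 2 Bmi1-201 held all 16.2 TPM. In that table the coding transcript was higher in replicate 2, although the gene total was higher in replicate 1. The table made from the reads gave Bmi1-201 7.08 and 5.11 TPM in replicates 1 and 2, or 9.56 and 21.4 TPM after rescaling over nuclear protein-coding genes. All coding transcripts of Bmi1 had 28.2 and 24.4 TPM in replicates 1 and 2 on that rescaled basis, and their share in replicate 1 was 50.2%, against 19.0% in the M21 alignment table. By expected counts in M21, coding transcripts held 70.0% of Bmi1 in replicate 1. Bmi1-203 ends in a stretch of 46 bases of the intron after exon 3 of Bmi1-201 (chr2:18682320-18682365, plus strand), in capitals after the last 24 bases of that exon.
Bmi1-203: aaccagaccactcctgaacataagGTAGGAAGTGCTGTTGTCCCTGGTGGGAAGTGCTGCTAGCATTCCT

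Cbx7, a CBX reader of canonical PRC1, had 28.2 and 18.6 TPM in replicates 1 and 2, averaging 23.4 ± 6.79 TPM (SD, n = 2). The short coding transcript Cbx7-202 had 17.1 TPM in replicate 1 and was at 0 in replicate 2, and Cbx7-203, a longer transcript with a frame of the same length, 158 codons, had 5.07 and 6.33 TPM in replicates 1 and 2. In the table made from the reads the coding Cbx7-201 led in replicate 1 with 46.2% of the gene's TPM, against 27.8% for Cbx7-202. Cbx7 exceeded Cbx2, Cbx6 and Cbx8, which also encode CBX proteins of PRC1, in each library.

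By mean TPM the order was Jarid2, Suz12, Eed, Bmi1, Ring1, Ezh2, Cbx7, Rnf2, Ezh1 and Cbx2. Each neighbouring pair from Jarid2 down to Rnf2 had ranges that overlapped between the libraries, so that part of the order is within their spread. The ranges of Rnf2 and Ezh1, and those of Ezh1 and Cbx2, did not overlap.

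**Figure D3:**
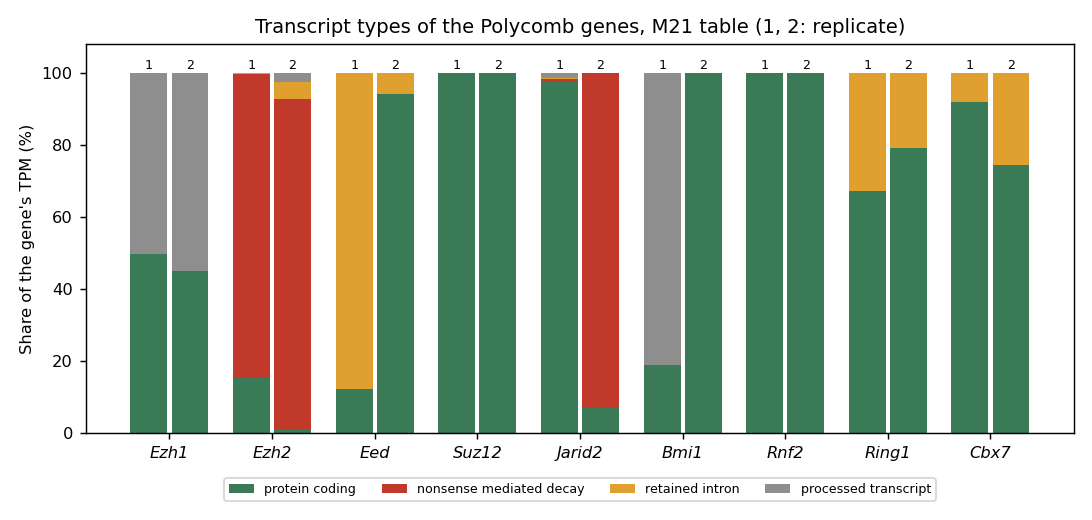
Share of each gene's TPM (vertical axis, percent) held by protein-coding, nonsense-mediated decay, retained-intron and processed transcripts in the M21 transcript table, with replicate 1 left and replicate 2 right for each gene. Cbx2 is left out because it was listed at 0. Decay-annotated transcripts fill most of both Ezh2 bars and of Jarid2 in replicate 2, and retained introns most of Eed in replicate 1.

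Protein-coding transcripts held under 50% of gene TPM for 4 of the 9 detected genes in replicate 1 (Ezh1, Ezh2, Eed and Bmi1), beside 26.7% of all detected protein-coding genes. In replicate 2 this held for 3 of them (Ezh1, Ezh2 and Jarid2), beside 31.6%. Ezh1 and Ezh2 were under 50% in both libraries, beside 21.2% of all detected genes. These genes are those of the M21 alignment table, and they changed with the table. In the table made from the reads Ezh2 and Ring1 were under 50% in both libraries, and Ezh1 held 45.8% and 78.2% in replicates 1 and 2. Eed was under 50% there in replicate 1 (20.8%) and Jarid2 in replicate 2 (6.10%). With M4 none of the 9 was under 50% in both libraries. Eed (8.59%) and Bmi1 (19.1%) were under it in replicate 1, and Jarid2 (7.29%) and Ezh1 (48.7%) in replicate 2. By expected counts the number under 50% was 2 in replicate 1 (Ezh2 and Eed), beside 16.2%, and 2 in replicate 2 (Ezh2 and Jarid2), beside 24.5%. Such majorities of non-coding transcripts also occurred in many other genes of these tables, and nothing particular to Polycomb genes is read from them.

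The TPM of 4 of the 9 genes that averaged at least 50 expected counts was 2-fold or more apart between the libraries, against a background of 51.1% of the 9028 genes compared. Jarid2 was higher in replicate 2 (background in that direction 15.6%), and Eed, Bmi1 and Rnf2 were lower (background 35.5%). The log2 ratio of TPM, replicate 2 over replicate 1, was 2.94 for Jarid2, -3.70 for Eed, -1.31 for Bmi1 and -1.43 for Rnf2. The median over the 9 genes was -0.60, beside -0.39 over all genes compared. With the median of all genes set to 0, 2 of the 9 were higher in replicate 2 (Jarid2 and Suz12) and 2 lower (Eed and Rnf2). Of the 9028 genes compared, 2134 were then higher and 2473 lower. Among the calls alone, 46.3% were then higher, against 30.4% without that step.

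TPM divides by an effective length that follows from the transcripts each library was assigned. Among the 9 genes, the effective length of 4 was 2-fold or more apart between the libraries, beside a background of 8.89%. They were the same 4 genes as in TPM, a measure that is not independent of the effective length. That of Eed was 446 bases in replicate 1 and 1852 bases in replicate 2, that of Jarid2 2993 and 662 bases, that of Bmi1 843 and 3464 bases, and that of Rnf2 1319 and 3030 bases, in the same order of replicates. Without the length, as CPM, Jarid2 had 51.9 and 76.1 in replicates 1 and 2, and its fold between the libraries was 1.47, against 7.69 in TPM. Bmi1 had 34.2 and 49.1 CPM in replicates 1 and 2, and Rnf2 had 39.0 and 28.6 CPM in replicates 1 and 2. These 3 genes were within 2-fold in CPM, and Bmi1 turned direction.

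In CPM, 2 of the 9 genes were 2-fold or more apart, against a background of 51%. Both were lower in replicate 2 (background 41.3%), and 0 were higher (background 9.67%). Eed had 50.9 and 14.0 CPM in replicates 1 and 2, a log2 ratio of -1.86. Ezh2 had 52.7 and 22.1 CPM in replicates 1 and 2, a log2 ratio of -1.25, with effective lengths of 1504 and 1344 bases. The median over the 9 genes was -0.45 in CPM, beside -0.64 over all genes. TPM and CPM gave ratios of opposite sign for Bmi1 and Cbx7, beside 10.9% of all genes. With edgeR TMM scaling or DESeq2 size factors, Eed alone of the 9 remained 2-fold or more apart. Of all 9029 genes compared, 4315 with TMM and 4331 with DESeq2 size factors were that far apart. Replicate 2 was 5.06 times shallower by the expected counts of M21, and 3.10 times by the counts of the table made from the reads. The part of depth in these gaps was not tested.

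**Figure D4:**
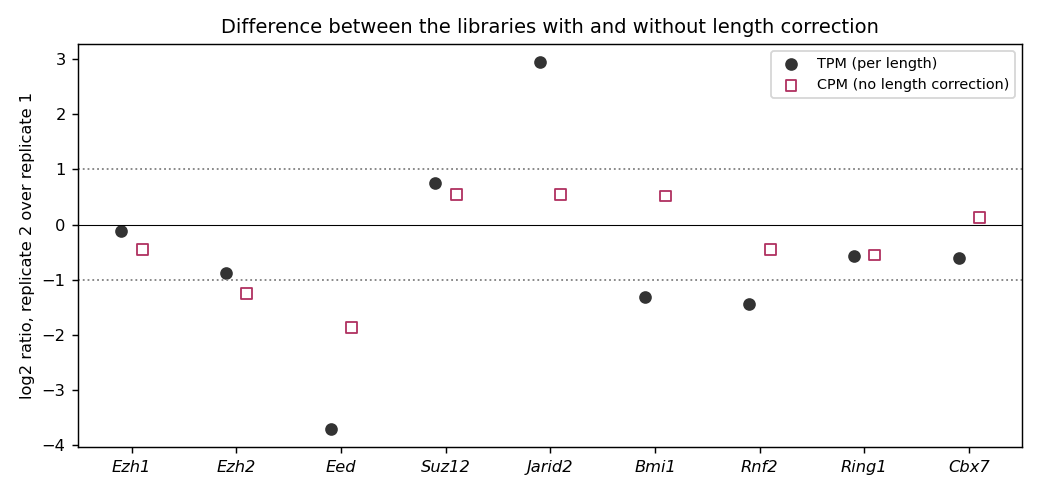
Log2 ratio of replicate 2 over replicate 1 for the 9 Polycomb genes that pass the count filter, in TPM (filled circles) and in CPM (open squares), with dotted lines at 2-fold. Jarid2, Bmi1 and Rnf2 lie outside the lines in TPM and inside them in CPM, Ezh2 the reverse, and Eed outside on both scales.

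The wider Polycomb machinery was mostly present. Of 56 other genes in 6 lists, 40 were detected, beside the 33.1% of all protein-coding genes. Among other PRC2 subunits, 6 of 8 were detected, led by Phf1, which binds methylated histone H3, with 27.8 and 60.1 TPM in replicates 1 and 2, and the histone chaperone Rbbp7 with 50.6 and 8.80 TPM in replicates 1 and 2. The accessory subunit Phf19 was not detected, with 22 expected counts in replicate 1 and 0 in replicate 2. Of the 6 that passed the count filter, 1 was 2-fold or more higher in replicate 2 and 4 were lower in TPM, beside backgrounds of 15.6% and 35.5%, with a median log2 ratio of -1.68, beside -0.39 over all genes. In CPM 0 were higher and 4 lower, beside 9.67% and 41.3%, with a median of -2.38, beside -0.64.

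Of the other PCGF genes, whose products define the PRC1 variants, 4 of 5 were detected. Pcgf3 had 45.2 and 38.9 TPM in replicates 1 and 2, Pcgf6 had 6.87 and 23.7 TPM in replicates 1 and 2, and Pcgf2, the closest paralog of Bmi1, was under the threshold with 0.35 and 4.14 TPM in replicates 1 and 2. Of the other CBX genes of canonical PRC1, Cbx6 was detected with 6.19 and 9.33 TPM in replicates 1 and 2. Cbx8 had no counts in either library. Of the PHC and SCM genes, which encode proteins with the SAM domain that lets PRC1 polymerise and relatives with MBT repeats, 3 of 8 were detected, with Phc2 at 60.3 and 71.8 TPM in replicates 1 and 2 and Phc1 at 25.0 and 13.8 TPM in replicates 1 and 2. Sfmbt2 had 7.44 and 0.96 TPM in replicates 1 and 2.

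Among these lists of other Polycomb machinery, the non-canonical PRC1 list held the gene with the highest level in each library. Its median TPM was not the highest of these lists in either library. In that list 16 of 19 were detected, led by Fbrs with 546 and 1194 TPM in replicates 1 and 2 and its paralog Fbrsl1 with 111 and 195 TPM in replicates 1 and 2. Fbrs exceeded each of the 10 core genes in both libraries. Mga, a DNA-binding subunit of the PCGF6 variant, was under the threshold in replicate 1 with 0.87 TPM and had 1.84 TPM in replicate 2. Among genes of the Polycomb deubiquitinase PR-DUB and of enzymes that remove Polycomb marks, 10 of 13 were detected. Mbd6, a PR-DUB subunit, had 254 and 609 TPM in replicates 1 and 2, and Kdm6b, a demethylase of the PRC2 mark, had 142 and 189 TPM in replicates 1 and 2. Mbd5, a relative of Mbd6 in PR-DUB, had 0.85 and 2.78 TPM in replicates 1 and 2. Of the 11 genes of that list that passed the count filter, 4 were 2-fold or more higher in replicate 2 and 1 lower in TPM. Their median log2 ratio was 0.86, and in CPM 0 were higher and 1 lower, with a median of 0.21. Of the 18 non-canonical PRC1 genes that passed that filter, 4 were higher and 4 lower in TPM, with a median of 0.56. In CPM 2 of them were higher and 4 lower, with a median of -0.15. Over all genes, 15.6% were higher and 35.5% lower in TPM (median -0.39). The same shares in CPM were 9.67% and 41.3% (median -0.64).

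**Figure D5:**
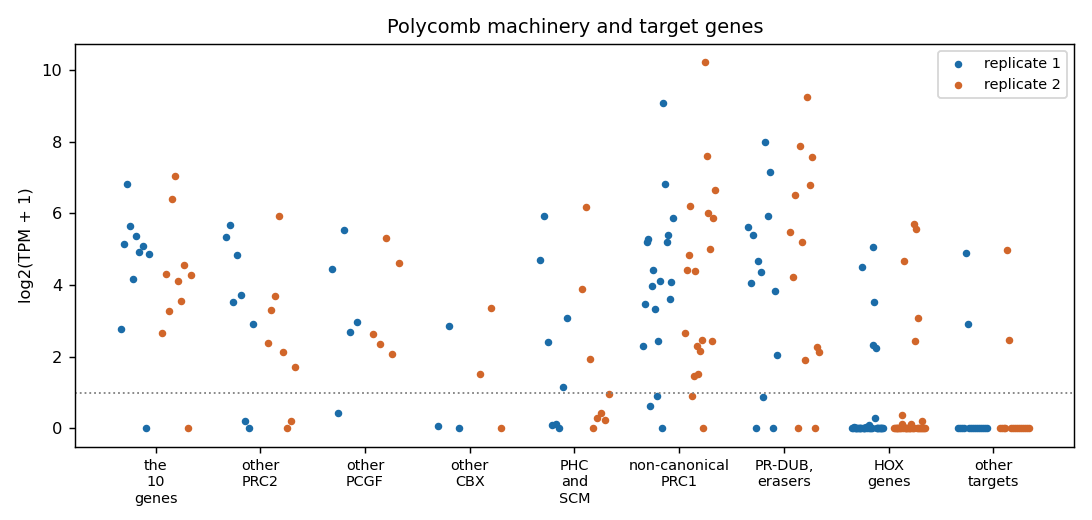
Levels as log2(TPM + 1) of every gene in the lists of Polycomb machinery and of target genes, 1 point per gene, in replicate 1 (blue, left) and replicate 2 (orange, right), with the dotted line at 1 TPM. Most machinery genes lie above the line, whereas most HOX and other target genes lie at 0.

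Genes that Polycomb classically silences include the HOX genes and other developmental regulators. Of 39 HOX genes, 5 were detected and 25 (64.1%) were without a count in both libraries. Of 16 other developmental targets, 2 were detected and 14 (87.5%) were without a count in both. Of all protein-coding genes, 33.1% were detected and 40.6% were without a count in both, and their median was 0.01 and 0.02 TPM in replicates 1 and 2. The highest HOX gene was Hoxc4, with 32.7 and 51.4 TPM in replicates 1 and 2, followed by Hoxc6 with 10.6 and 46.1 TPM in replicates 1 and 2. The other 3 detected were Hoxb13, Hoxc5 and Hoxc9. In the annotation Hoxc5 overlaps Hoxc6 and Hoxc9 on the same strand, so fragments could be split between them by estimate. Hoxa9, a HOX gene of early blood progenitors, was under the threshold with 0 and 0.29 TPM in replicates 1 and 2. Pax6, a regulator of eye and brain development, had 28.9 and 30.3 TPM in replicates 1 and 2, above Ezh1 in both libraries. It is overlapped by Pax6os1 on the opposite strand. Pax3, a regulator of muscle and neural crest development, had 6.47 and 4.53 TPM in replicates 1 and 2. No histone mark was measured, and silence here means only that RNA was not detected at these depths.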

How the data were processed

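Polyadenylated RNA of 2 libraries of 1 group was analysed. The deposited file descriptions state that reads were placed on mm10 and quantified against GENCODE M21 and M4 from an alignment to the transcriptome, and against M21 from the reads. Aligner, quantifiers and strand setting are not stated in the sources used here. Deposited expected counts estimate the fragments of each gene or transcript and were made by the authors without normalization. The authors' TPM, per the file headers, is scaled to a fixed total per table after division by effective length. Other deposited columns hold the effective length in bases and an interval of posterior TPM, whose level is not stated.

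Symbols came from the table made from the reads (55450 of 55536 gene IDs, with the other 86 unnamed), and types, coordinates and sequences from GENCODE M21, which matched all 55536. CPM is the expected count over the library total. Detected means 1 TPM or more in both libraries. Genes averaging at least 50 expected counts were called apart at 2-fold or more. The code for that count was tested on simulated data. Means have their SD with n = 2, and floors are 3 counts. Precision follows depth, 71485617 counts in replicate 1 and 14121747 in replicate 2.

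Members and lists were chosen with earlier results of these data known. Text names all members, each member's leading transcripts and others its account needs, and per list the 2 highest detected genes and the highest undetected one; where the undetected were tied at 0, none is named. A gene that this rule names is not reported here. The Hox genes in the remaining count, the overlapping genes and Cbx8 were named after their values were seen. Ezhip, of the PRC2 list, was not found by symbol. Alternatives were the other tables, posterior TPM, other scalings, thresholds and pseudocounts, size factors from edgeR (TMM) or DESeq2 after rounding of the expected counts, each replicate alone, and coding transcripts alone. The work used Python 3.11.15 (pandas 2.3.3, numpy 2.4.6, matplotlib 3.10.9, scipy 1.17.1) with DESeq2 1.42.0 and edgeR 4.0.16 in R 4.3.3.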

Additional observations from a re-analysis of the deposited data

How the results depend on the processing

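The depth of replicate 2 and the share-out of fragments among transcripts limit these values, which have no test and no control. The ratio of Ezh2 to Ezh1 TPM averaged 4.73 and moved to 2.86 with M4 and to 8.64 in the table made from the reads (8.64 also when rescaled). Over coding transcripts in M21 it moved to a mean of 0.936, from unlike values of 1.81 and 0.0622 in replicates 1 and 2. Over coding transcripts it moved to 1.49 in the table made from the reads and was 5.47 with M4. Over all transcripts in M21 the ratio ranged from 3.50 to 5.96 with each replicate alone. The median level of the 10 genes ranged likewise from 17.4 to 31.3 TPM around 24.3 TPM. That median was 39.3 in CPM. The number of the 9 genes 2-fold or more apart was 4, against 7 in the table made from the reads, 2 in CPM, 1 with TMM and 1 with DESeq2 size factors. Over all genes it was 4611 of 9028, against 4604 in CPM, 4315 with TMM and 4331 with DESeq2 size factors, each of 9029. It was 7922 of 10268 in the table made from the reads. There the median log2 ratio of all genes was -1.69 and the share of higher calls 5.88%. That share was 30.4% in the M21 TPM, 46.3% with the median of all genes set to 0 and 43.4% in the table made from the reads after rescaling. The log2 ratio of Bmi1 turned from -1.31 to 0.52 in CPM, 0.87 with TMM and 0.95 with DESeq2 size factors, scales without a length. The median coding share of the genes was 73.2% (67.2% and 79.2% in replicates 1 and 2) and moved to 90.0% with the M4 transcripts. Over all detected genes the median coding share was 91.6% and 94.5% in replicates 1 and 2. For the other moves the cause was not tested. Detection of 9 of the 10 genes by gene total was the same in every alternative run for it. Detection was not run on coding transcripts alone, where Ezh2 had 0.15 TPM in replicate 2 of the M21 table, under the threshold. No paired analysis was possible because the series holds 1 group.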

Other observations

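The CBX genes of heterochromatin protein HP1, which bind another histone H3 mark than the Polycomb CBX proteins, were all detected, 3 of 3. Cbx3 had 44.8 and 50.2 TPM in replicates 1 and 2, Cbx1 had 23.9 and 21.01 TPM in replicates 1 and 2, and Cbx5 had 3.24 and 4.87 TPM in replicates 1 and 2. None of the 3 was 2-fold or more apart between the libraries in TPM or in CPM, beside 51.1% of all genes in TPM and 51% in CPM.

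Gata2, a progenitor factor that GATA1 is known to replace, stood at 77.0 and 184 TPM in replicates 1 and 2, above Ezh2 in both libraries, whereas the progenitor receptor Kit was under the threshold with 0.92 and 0.61 TPM in replicates 1 and 2.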
